A study of Mus musculus with 9 samples.

Results

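The 34 genes described here mark lymphocytes: T cells, natural killer (NK) cells and B cells. The list, named by symbol, held Cd3d, Cd3e, Cd3g, Cd247, Cd4, Cd8a, Cd8b1, Lck, Zap70, Cd2, Cd5, Cd27, Cd28, Eomes, Tbx21, Foxp3, Gata3, Klrb1c, Klrk1, Klrd1, Ncr1, Il2rb, Nkg7, Gzma, Gzmb, Prf1, Ifng, Ccl5, Cd79a, Cd79b, Ms4a1, Cd22, Pax5 and Blk. Of these, 32 had at least 1 probe set annotated to that gene alone, among 18193 genes so represented on the array. Lck and Klrb1c had none and are not analysed here. A gene with several probe sets was represented by the one with the highest mean over the 9 arrays. The 32 genes had 49 probe sets in all.

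Liver RNA was hybridised to 1-colour arrays in 3 groups of 3 arrays, from KKAy mice, which become obese and diabetic. All mice were 8 weeks old. The BI group received insulin at 40 µg/mL, of which 11% was in a biomineralized form, in an intraperitoneal injection of 100 µL of culture medium. The insulin group received plain insulin at the same concentration and volume, and the third group is labelled KKAy with no treatment. The protocol also describes control mice injected with medium, and it is unclear from the labels if the untreated mice are the same. A chow with 34% fat is given for 8 of the 9 arrays, while the growth protocol of BI replicate 2 describes rats. Nothing says whether an array came from 1 animal or from a pool, so a p-value speaks for the spread of these samples alone, and that spread may be technical. No group without diabetes was analysed, and the RNA is of whole liver, so fewer cells of a type and less RNA per cell cannot be told apart.

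T cells recognise antigen through a receptor whose signal passes through the CD3 chains and the kinases Lck and Zap70. NK cells need no such receptor and are steered by a balance of activating and inhibitory surface receptors. Both kill with perforin and granzymes, while B cells sense antigen through surface antibody coupled to CD79 chains. The liver is known for its large resident population of NK and NK-like T cells.

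The lymphocyte genes were dim in all 3 groups. Their mean signal had a median of 5.08 on the log2 scale, against 7.27 over all genes, and array medians lay between 6.11 and 6.30. Only 6 of the 32 had a mean over 9 arrays above 6.20, the middle array median, as 59.9% of all genes did. These were Zap70, Ccl5, Cd22, Klrk1, Cd8a and Prf1. Zap70 alone exceeded the median of every array, while 14 genes were below it on all 9 and 17 were above it on some. The number of genes above the array median was 8, 6 and 5 on the BI arrays, 8, 11 and 5 on the insulin arrays, and 11, 3 and 6 on the untreated arrays. The values carry no measure of background, so whether the dim signals exceeded it is unknown.

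**Figure D1:**
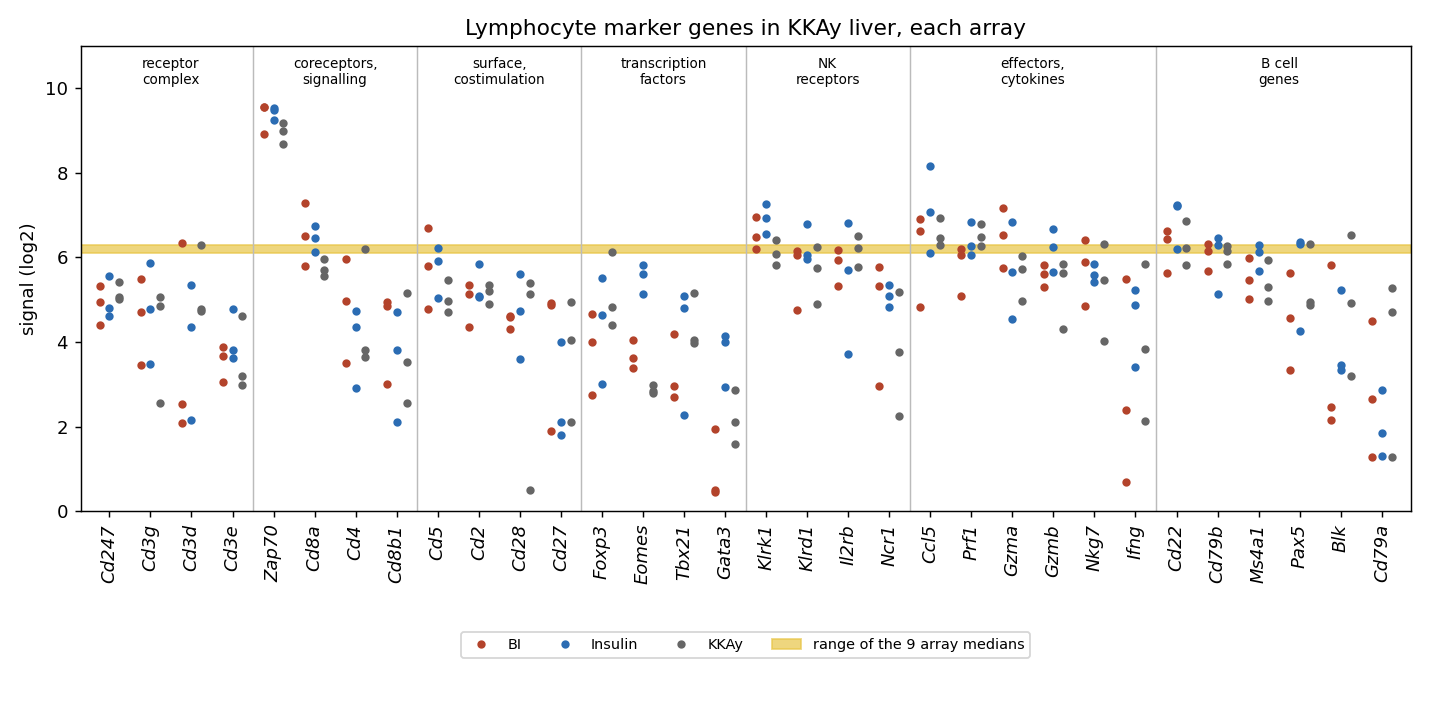
Signal (log2) of the 32 lymphocyte marker genes on each array, 1 point per array, with BI, insulin and untreated KKAy arrays side by side and genes grouped by role. The band spans the 9 array medians (6.11 to 6.30), and only Zap70 lies above it throughout.

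Markers of other cells were read in the same libraries, each list against the array median. All 8 hepatocyte markers averaged 15.12 to 15.61, with Alb, which encodes albumin, between 15.15 and 15.45. Ptprc, the CD45 antigen of all leukocytes, lay between 9.33 and 10.54, and 7 of 8 Kupffer cell and macrophage markers had a mean above 6.20. Dendritic cell markers had 1 of 5 above it, lymphoid stroma 1 of 3, neutrophils 4 of 6 and plasma cells 3 of 5. The chains that define T cells, Cd3d, Cd3e and Cd3g, averaged 4.29, 3.74 and 4.47, below every array median, so the presence of T cells could not be read from them.

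Promoter windows from RefSeq (GRCm38.p6), 250 bases before to 50 after the start, were available for 24 of the 34 genes, as 29 windows. Those of Eomes and Gata3, the genes with the largest differences between groups, and of Klrk1 and Prf1, brighter cytotoxic genes, are shown because the text returns to these genes. They run 5′ to 3′ on the gene's strand, with transcription starting at base 251. Capitals mark TGTGGT or its complement ACCACA, the core of RUNX sites, GATAA or TTATC, that of GATA sites, and TCACACC or GGTGTGA, that of T-box sites.
Eomes (chr9:118477939-118478238, plus strand): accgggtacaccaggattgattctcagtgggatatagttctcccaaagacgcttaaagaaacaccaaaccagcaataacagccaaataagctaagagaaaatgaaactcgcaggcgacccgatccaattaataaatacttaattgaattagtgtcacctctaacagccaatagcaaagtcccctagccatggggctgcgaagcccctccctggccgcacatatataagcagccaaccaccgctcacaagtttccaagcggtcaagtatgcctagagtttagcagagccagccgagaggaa
Gata3 (chr2:9878551-9878850, minus strand): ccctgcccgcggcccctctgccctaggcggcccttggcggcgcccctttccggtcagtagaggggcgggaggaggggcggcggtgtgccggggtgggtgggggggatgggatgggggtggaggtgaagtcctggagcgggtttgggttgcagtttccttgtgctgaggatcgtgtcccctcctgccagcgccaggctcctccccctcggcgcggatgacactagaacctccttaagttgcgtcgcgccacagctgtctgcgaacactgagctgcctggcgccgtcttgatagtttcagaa
Klrk1 (chr6:129623815-129624114, minus strand): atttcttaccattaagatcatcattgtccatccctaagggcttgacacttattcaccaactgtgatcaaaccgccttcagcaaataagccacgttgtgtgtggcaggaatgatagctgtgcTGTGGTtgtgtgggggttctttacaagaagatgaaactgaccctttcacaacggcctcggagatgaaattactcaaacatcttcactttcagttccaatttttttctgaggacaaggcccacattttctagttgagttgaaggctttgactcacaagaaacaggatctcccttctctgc
Prf1 (chr10:61297586-61297885, plus strand): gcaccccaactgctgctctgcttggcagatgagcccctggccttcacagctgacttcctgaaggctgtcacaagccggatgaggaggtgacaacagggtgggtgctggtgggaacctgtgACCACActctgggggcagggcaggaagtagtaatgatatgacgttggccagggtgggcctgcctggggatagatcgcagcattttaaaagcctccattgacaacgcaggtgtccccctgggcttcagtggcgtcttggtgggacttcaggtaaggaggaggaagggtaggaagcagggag

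Of the 29 windows, 10 held the RUNX core on either strand (34.5%), against 16.8% of 32851 promoter windows. These included 7 of the 8 NK and cytotoxic genes with a window (Klrk1, Klrb1c, Ncr1, Nkg7, Gzma, Gzmb and Prf1, but not Ifng), 2 of 13 T cell and transcription factor genes and 0 of 3 B cell genes. The GATA core was in 5 windows (17.2%, against 25.4%) and the T-box core in 1 (3.45%, against 3.98%). The windows of Eomes and Gata3 held none of the 3 cores. The RUNX core and the complement of the T-box core share letters and can overlap. A match describes letters only, and the grouping of genes by match was made after the matches were seen.

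The signal of the T cell receptor complex was low in each group. Cd247, the zeta chain that carries most of the receptor's signalling motifs, was the brightest of its 4 genes. It read 4.95, 4.40 and 5.33 on the BI arrays, 4.62, 5.56 and 4.80 on the insulin arrays, and 5.41, 5.07 and 5.02 on the untreated arrays. The groups overlapped throughout. Cd3d spread widely, between 2.10 and 6.35, and its SD within groups was 1.72. Both the highest and the lowest of these Cd3d values came from BI arrays.

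Among the coreceptors and signalling genes, Zap70, the kinase recruited to the activated receptor, stood far above the rest. Its signal was 8.93, 9.56 and 9.57 with BI, 9.49, 9.24 and 9.53 with insulin, and 8.68, 9.17 and 8.99 without treatment. Each insulin array was above each untreated array, by 0.48 on average (95% interval -0.08 to 1.04), and the BI arrays overlapped both groups. The other 2 Zap70 probe sets both averaged 8.90 and differed by 0.14 and 0.23 between insulin and untreated, and the average of all 3 differed by 0.28. Cd8a, a chain of the coreceptor of killer T cells, read 6.50, 5.79 and 7.29 with BI, 6.74, 6.45 and 6.14 with insulin, and 5.97, 5.70 and 5.56 untreated. All insulin arrays and 2 of 3 BI arrays lay above all untreated ones on this probe set. Of the 4 other Cd8a probe sets, 3 were higher with insulin than untreated by 0.34 to 0.76, with overlap, and on the dimmest all insulin arrays lay below all untreated ones, with a difference of -1.01 (95% interval -1.93 to -0.09). Averaged over its probe sets, Cd8a differed by 0.29 between insulin and untreated and by 0.12 between BI and untreated, against 0.70 and 0.78 on the brightest. Cd4, the coreceptor of helper T cells, averaged 4.82 ± 1.24, 4.01 ± 0.95 and 4.56 ± 1.42 in the BI, insulin and untreated groups (SD, n = 3 each).

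Surface and costimulatory genes of T cells averaged 3.42 to 5.51. Cd5, which dampens receptor signalling, was the brightest, at 5.80, 4.78 and 6.69 on the BI arrays, 5.05, 6.23 and 5.91 on the insulin arrays, and 4.98, 5.46 and 4.72 on the untreated arrays. Its groups overlapped. Cd28, the main costimulatory receptor, had the lowest single value of this class, 0.50 on untreated replicate 3, where untreated replicates 1 and 2 had 5.14 and 5.41. Cd2, an adhesion molecule, was steadier, between 4.36 and 5.84.

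Lineage transcription factors held both of the largest differences, at low signal. Eomes, a T-box factor of NK cells and memory killer T cells, read 3.61, 4.05 and 3.38 with BI, 5.15, 5.62 and 5.82 with insulin, and 2.84, 2.79 and 2.98 without treatment. No 2 groups overlapped: insulin was highest, BI intermediate and untreated lowest. Its SD within groups was 0.29, against a median of 1.22 for the 3686 genes with a mean signal from 3 to 5. Gata3, the factor of type 2 helper cells, read 1.94, 0.46 and 0.51 with BI, 4.01, 2.94 and 4.14 with insulin, and 2.11, 1.60 and 2.86 untreated. The insulin arrays were above all others, while BI replicate 1 lay within the untreated range. Tbx21, a T-box factor related to Eomes, drives type 1 responses. It averaged 3.29 ± 0.80 with BI, 4.06 ± 1.55 with insulin and 4.40 ± 0.67 untreated, and its groups overlapped. Foxp3, the factor of regulatory T cells, read 4.65, 2.74 and 4.01 with BI, 4.65, 5.53 and 3.02 with insulin, and 6.14, 4.83 and 4.39 untreated.

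**Figure D2:**
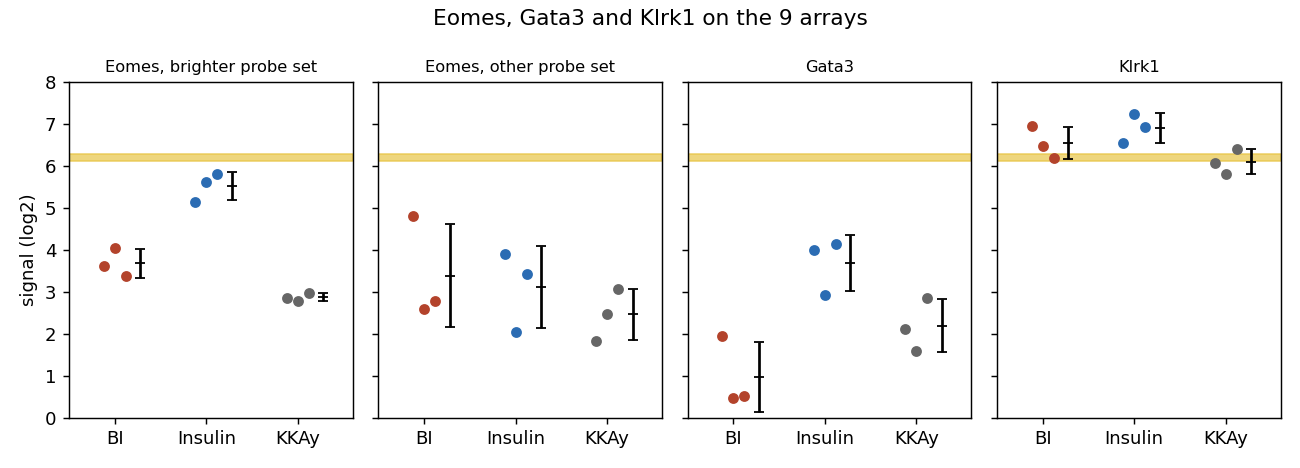
Signal (log2) on each array of both Eomes probe sets, Gata3 and Klrk1, for BI, insulin and untreated KKAy, with the group mean and SD as a black bar and the range of array medians as a band. The 3 insulin arrays lie highest for the brighter Eomes probe set (5.15 to 5.82) and for Gata3 (2.94 to 4.14), while the groups overlap for the other Eomes probe set.

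The second Eomes probe set did not show that order. It read 4.80, 2.59 and 2.77 on the BI arrays, 3.90, 2.03 and 3.42 on the insulin arrays, and 1.84, 2.48 and 3.06 on the untreated arrays. Its difference between insulin and untreated was 0.66 (95% interval -1.03 to 2.34), an interval that overlaps the 2.07 to 3.23 of the brighter probe set. Between BI and insulin the second probe set differed by 0.27 (95% interval -1.41 to 1.95) and the brighter one by -1.85 (-2.43 to -1.27). The signs differed, and these intervals overlap narrowly. Over the 11 genes with several probe sets, 10 of 17 further probe sets had the sign of the brightest one in insulin against untreated, 7 of 17 in BI against untreated and 5 of 17 in BI against insulin.

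The 4 NK receptor genes averaged 4.51 to 6.52, and Klrk1 alone had a mean above 6.20. Klrk1, which encodes the activating receptor NKG2D, read 6.95, 6.49 and 6.20 with BI, 6.55, 7.25 and 6.92 with insulin, and 6.08, 5.82 and 6.41 without treatment. Every insulin array was above every untreated one, and the BI arrays overlapped both. Klrd1, the CD94 partner of inhibitory receptors, averaged 5.65 ± 0.78 with BI, 6.28 ± 0.45 with insulin and 5.63 ± 0.69 untreated. Ncr1, the NK receptor NKp46, averaged 4.69 ± 1.52, 5.09 ± 0.26 and 3.73 ± 1.47 in the same order. Il2rb, a shared receptor chain for interleukins 2 and 15, ran from 3.71 to 6.82, and both of these extremes were insulin arrays.

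Among effectors, the chemokine Ccl5 was brightest. Its signal was 6.90, 6.62 and 4.84 with BI, 8.17, 7.08 and 6.11 with insulin, and 6.93, 6.45 and 6.31 untreated. BI replicate 3 was lowest and insulin replicate 1 highest. Prf1, the pore-forming perforin, read 5.10, 6.21 and 6.07 with BI, 6.85, 6.28 and 6.05 with insulin, and 6.79, 6.28 and 6.48 untreated. All BI arrays were below all untreated arrays. The other Prf1 probe set read 6.48, 6.46 and 6.37 with BI, 5.58, 5.81 and 6.17 with insulin, and 5.96, 5.67 and 6.21 untreated. There all BI arrays were above all untreated arrays, which is the opposite order, and above all insulin arrays. The granzymes Gzma and Gzmb, proteases delivered through perforin pores, averaged 5.92 and 5.68. Ifng, the cytokine interferon gamma, had the widest spread of all 32 genes, between 0.69 and 5.86, with an SD within groups of 1.85.

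B cell genes averaged 2.86 to 6.47. Cd22, an inhibitory receptor of B cells, was brightest, at 6.44, 5.62 and 6.64 with BI, 7.24, 7.21 and 6.19 with insulin, and 6.23, 5.82 and 6.86 untreated. Its groups overlapped. The partner chains of the B cell receptor differed in level between probe sets, Cd79b averaging 6.04 and Cd79a 2.86, which are separate probes and give no ratio of the transcripts. Cd79b was the steadier, between 5.14 and 6.46. Pax5, which commits cells to the B lineage, averaged 4.51 ± 1.14 with BI, 5.66 ± 1.20 with insulin and 5.38 ± 0.81 untreated. Its other probe set differed by 1.91 between BI and untreated, where the brighter one gave -0.87.

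**Figure D3:**
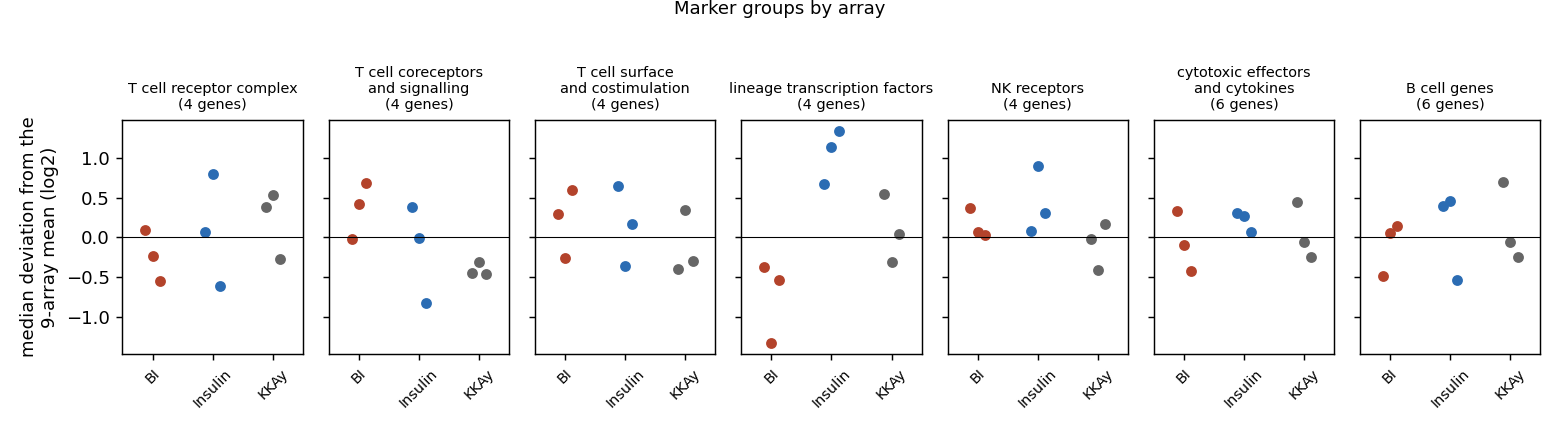
Median deviation of each class of lymphocyte genes from its 9-array mean (log2), 1 point per array, for BI, insulin and untreated KKAy. The transcription factor class lies at -1.33 to -0.38 on the BI arrays and at 0.67 to 1.34 on the insulin arrays. The classes of the receptor complex, costimulation, NK receptors, effectors and B cells overlap between all groups.

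Summarised per array as the median deviation from each gene's 9-array mean, the 32 genes stood at -0.05 to 0.00 with BI, -0.09 to 0.51 with insulin and -0.20 to 0.21 untreated. Insulin replicate 2 had the highest value and untreated replicate 3 the lowest. The class of 4 transcription factors lay at -1.33 to -0.38 with BI, at 0.67 to 1.34 with insulin and at -0.31 to 0.54 untreated. No 2 groups overlapped in this summary, but its genes did not move alike. With insulin against untreated, Eomes and Gata3 were higher, while Tbx21 (-0.34) and Foxp3 (-0.72) were lower, with overlapping groups. The coreceptor and signalling class lay at -0.03 to 0.69 with BI and at -0.46 to -0.30 untreated, again without overlap, while its insulin arrays spread from -0.82 to 0.39. Both classes were read on the brightest probe sets, and neither was tested as a unit.

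The insulin group was set against the group labelled with no treatment. If those mice had no injection, insulin and the injection of medium cannot be told apart here. None of the 32 genes passed limma's test at an adjusted p of 0.05 over 45037 probe sets, of which 0% were called. Higher mean signals were seen for 20 of 32 genes and lower for 12. The median difference was 0.41, against 0.023 over all genes, of which 53.7% were higher and 46.3% lower. Eomes had the smallest p, with a difference of 2.65 ± 0.25 (SE) and an adjusted p of 0.171, followed by Klrk1 (0.81 ± 0.29) and Gata3 (1.50 ± 0.54). These 3 genes had an unadjusted p under 0.05 in the higher direction, and none did in the lower one, against 2.48% and 1.39% of all genes, or 3.87% in either direction. In 5 of 32 genes, Eomes, Gata3, Klrk1, Cd8a and Zap70, the insulin arrays were all above the untreated arrays, as for 5.74% of all genes. The opposite order held for 0 of 32, against 3.48% of all genes.

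By class, 5 of 6 effectors were higher with insulin (median 0.45), as were 3 of 4 NK receptors (median 0.73) and 3 of 4 surface genes (0.43). Of the receptor complex 2 of 4 were higher, as were 2 of 4 coreceptors and signalling genes, 2 of 4 transcription factors and 3 of 6 B cell genes. These counts rest on the brightest probe set of each gene, whose sign 10 of 17 further probe sets shared. Among the effectors Gzmb stood at 0.93 (95% interval -0.12 to 1.97). For B cells, Ms4a1, which encodes the CD20 antigen, stood at 0.64 (-0.19 to 1.46) and Cd79a at -1.74 (-4.53 to 1.04). The 6 genes above the middle array median had a median difference of 0.57, with 5 higher, and the 26 others one of 0.23, with 15 higher.

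**Figure D4:**
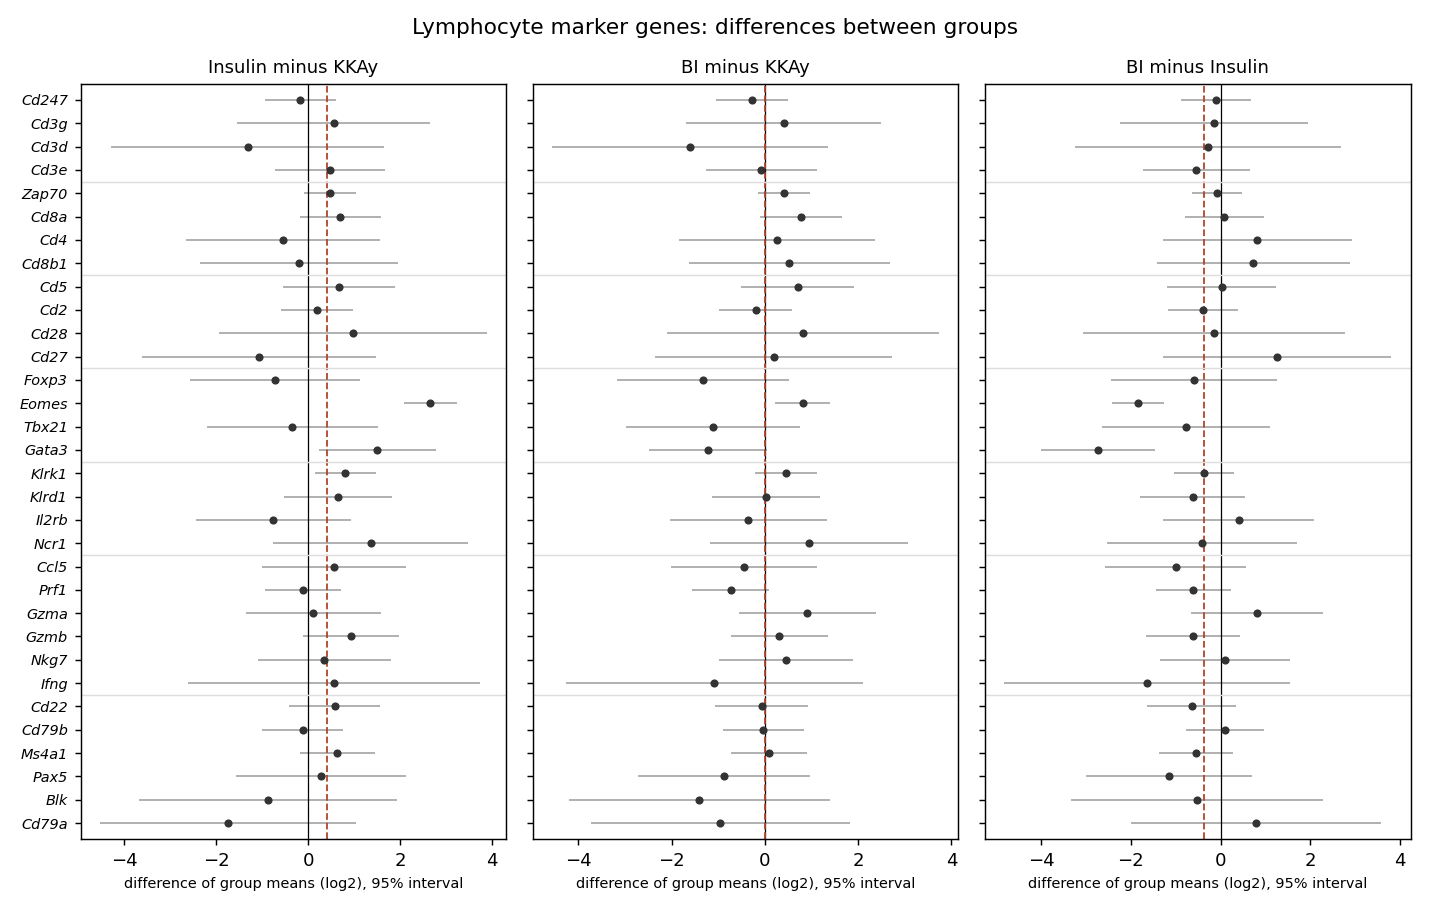
Difference of group means (log2) with its 95% interval from limma for each of the 32 genes, in insulin minus KKAy, BI minus KKAy and BI minus insulin. The dashed line is the median over the genes (0.41, -0.0049 and -0.38), and most intervals span 0.

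The BI group was then set against the same untreated arrays, so these 2 comparisons share them and the same limit on the injection. Most of the insulin in the BI injection was not in the biomineralized form. None of the 32 genes passed (0.0111% of probe sets did), and the smallest adjusted p among them was 0.999. Exactly 16 were higher and 16 lower, with a median difference of -0.0049, against 0.00038 over all genes, of which 50.1% were higher and 49.9% lower. Eomes stood at 0.81 ± 0.25 (SE) and was the 1 gene with an unadjusted p under 0.05, in the higher direction, against 2.13% of all genes. None had one in the lower direction, against 1.77%, and 3.9% of all genes had one in either. The next were Gata3 at -1.22 ± 0.54 and Cd8a at 0.78 ± 0.38. BI arrays were all above untreated arrays for Eomes alone (1 of 32, against 4.84% of all genes) and all below for Prf1 alone (1 of 32, against 4.52%), where the difference was -0.73 (95% interval -1.55 to 0.10).

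By class, 4 of 4 coreceptor and signalling genes were higher with BI (median 0.46), while 5 of 6 B cell genes were lower (median -0.47). These counts rest on the brightest probe set of each gene, whose sign 7 of 17 further probe sets shared. The other Cd4 probe set stood at -0.18, those of Zap70 at -0.09 and 0.06, and 2 of 4 of Cd8a shared its sign. Among B cell genes, the other probe sets of Cd22 (0.15) and Pax5 (1.91) were higher with BI. Of the transcription factors 3 of 4 were lower, Foxp3 at -1.32 (95% interval -3.16 to 0.52) and Tbx21 at -1.11 (-2.98 to 0.75) beside Gata3, with Eomes the exception. Cd3d had the largest lower value, -1.60, with an interval of -4.56 to 1.35.

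BI was set against plain insulin because both share the injection and the total concentration and differ by the labels in the biomineralized share. None of 32 genes passed, as for 0% of probe sets. Lower means were seen for 22 genes and higher for 10, with a median difference of -0.38, against -0.026 over all genes, of which 54.3% were lower and 45.7% higher. Eomes stood at -1.85 ± 0.25 (SE, adjusted p 0.288) and Gata3 at -2.72 ± 0.54 (adjusted p 0.640). They were the 2 genes with an unadjusted p under 0.05, both lower, against 1.89% of all genes in that direction, 1.55% in the higher one and 3.44% in either. For the same 2 of 32 genes all BI arrays lay below all insulin arrays, against 5.68% of all genes, and the opposite order held for 0 of 32, against 4.2%. Prf1 followed at -0.60 ± 0.35 (unadjusted p 0.128 in limma's test), with overlapping groups. Its other probe set stood at 0.58 ± 0.22 (unadjusted p 0.030 in the same test), with all BI arrays above all insulin arrays. That probe set averaged 6.08 over the arrays against 6.23, and its SD within groups was 0.23 against 0.45. Neither Prf1 probe set passed after adjustment.

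In this comparison 4 of 4 transcription factors were lower (median -1.31), as were 4 of 4 receptor complex genes by less (median -0.22), 4 of 6 effectors (-0.61), 4 of 6 B cell genes (-0.53) and 3 of 4 NK receptors (-0.39). Coreceptor and signalling genes were higher in 3 of 4 cases (median 0.40), with Cd4 at 0.81 (95% interval -1.29 to 2.92) and its other probe set at -0.49. These class counts rest on the brightest probe set of each gene, whose sign 5 of 17 further probe sets shared. Among B cell genes, the other probe sets of Ms4a1 (0.98), Cd22 (0.29) and Pax5 (1.28) were higher with BI. The 3 further probe sets of Cd247 ran from -2.09 to 1.36. A single test over the 3 groups, limma's moderated F, called 0 of 32 genes and 0% of probe sets. Eomes had the smallest adjusted p of the 32 in it (0.139), and Eomes and Gata3 had an unadjusted p under 0.05, against 3.81% of all genes.

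**Figure D5:**
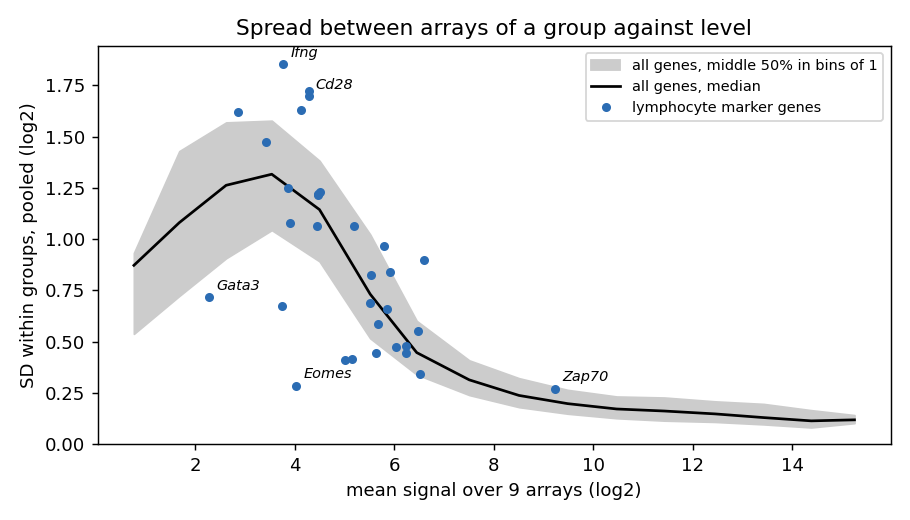
SD within groups (log2, pooled over the 3 groups) against mean signal for the 32 genes (points), with the median and middle 50% of all genes in bins of 1 log2 unit. Most of the 32 genes lie where the spread is largest, and Eomes lies below the middle 50% at its level.

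The spread between arrays of a group was wide for many of these genes. Their SD within groups had a median of 0.83, against 0.38 over all genes and 0.96 over the 3724 genes with a mean between the quartiles of the 32. It was over 1 for 13 of 32. A 95% interval reached a median of 2.11 to each side for genes with a mean signal from 3 to 5, which holds 13 of the 32, and 0.82 from 6 to 7, which holds 6. Eomes, with a mean in the lower of these ranges, had narrower intervals than that median.

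Further lymphocyte genes gave no call either. A second list of 62 genes, 25 of T cells, 20 of NK and cytotoxic cells and 17 of B cells, had 53 measured. With insulin against untreated 29 were higher and 24 lower (median 0.08). Limma called 0, with 2 higher and 1 lower at an unadjusted p under 0.05, a share close to the 3.87% of all genes. Ccr7, a homing receptor to lymph nodes, read 3.53, 3.86 and 3.11 with insulin, against 1.79, 1.93 and 1.21 untreated (1.86 ± 0.57), and Gzmk, a further granzyme, stood at -1.99 ± 0.74. These Ccr7 values lay below every array median (6.11 to 6.30). Of the second list, 5 of 21 T cell, 5 of 17 NK and cytotoxic and 5 of 15 B cell genes had a mean above 6.20. With BI against untreated 21 were higher and 32 lower (median -0.10). None passed, with 2 higher and 2 lower at an unadjusted p under 0.05 (3.9% of all genes), and Gzmk stood at -2.29 ± 0.74 and the NK receptor gene Klra8 at 2.29 ± 0.79. In BI against insulin 17 were higher and 36 lower (median -0.20). Again none passed, with 2 higher and 2 lower at that p (3.44% of all genes), and Bcl11b, a T cell commitment factor, stood at -0.91 ± 0.28 and Cd244a, an NK receptor, at 1.09 ± 0.39.

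Of 21 cytokines and ligands that act on lymphocytes 18 were measured. With insulin against untreated 15 were higher (median 0.22). In BI against insulin 16 were lower (median -0.43, against 54.3% of all genes lower), and with BI against untreated 14 were lower (median -0.25). None passed in any of these comparisons, and Cxcl9 was the 1 of 18 with an unadjusted p under 0.05 in BI against insulin, lower as 1.89% of all genes were. Cxcl9, a chemokine that draws T and NK cells, read 9.02, 7.85 and 7.44 with BI, 9.29, 9.59 and 9.07 with insulin, and 9.06, 8.08 and 8.24 untreated. All insulin arrays were above all the others, narrowly so over untreated (9.07 against 9.06), the difference of BI against insulin being -1.21 ± 0.45. Cxcl9 was the 1 of 18 higher without overlap in insulin against untreated (5.74% of all genes). In BI against insulin Cxcl9 and Il12a were lower without overlap (2 of 18, against 5.68%). Il15 was higher without overlap in BI against untreated (1 of 18, against 4.84%). The opposite order was not seen in these comparisons. The summed signal of the 18 genes was 4490 to 5111 linear units with BI, 5649 to 6387 with insulin and 4935 to 5220 untreated.

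Markers of other blood and immune cells were set beside these values. With insulin against untreated 4 of 7 leukocyte genes were higher (median 0.11) and 6 of 8 Kupffer and macrophage genes (median 0.26), 3 of 5 dendritic cell genes (0.38) and 2 of 6 neutrophil genes (-0.30). With BI against untreated 2 of 7 leukocyte genes were higher (-0.20), 3 of 8 Kupffer genes (-0.07), 3 of 5 dendritic cell genes (0.18) and 1 of 6 neutrophil genes (-0.54). In BI against insulin 5 of 7 leukocyte genes were lower (median -0.34), 8 of 8 Kupffer genes (-0.28), 6 of 6 neutrophil genes (-0.42) and 4 of 5 dendritic cell genes (-0.29). The summed signal of the leukocyte list was 3590 to 5031 with BI, 3868 to 5585 with insulin and 4131 to 5069 untreated, and that of the Kupffer list 12392 to 23663, 14364 to 21010 and 11504 to 21154 in the same order. These sums overlapped between all groups. No measured marker on these lists was at 0 on any array. The part of other cells in the differences of Eomes and Gata3 was not tested.

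Red blood cell genes (3 of 6 measured), platelet genes (4 of 4) and plasma cell genes (5 of 5) had medians of -0.57, -0.68 and -0.17 in BI against untreated and -0.30, -0.47 and -0.04 in insulin against untreated. Untreated replicate 2 had the highest summed platelet signal of all arrays, 1232 linear units, against 540 and 914 on untreated replicates 1 and 3. It was also highest for plasma cells (17953, against 9878 and 12966) and for neutrophils (9845, against 1628 and 3064). Exocrine pancreas genes (2 of 5 measured) and lymphoid stroma genes (3 of 5) stood at -0.42 and 0.64 with insulin and at -0.09 and -0.47 with BI, both against untreated. Hepatocyte markers had medians of 0.02 with BI and -0.01 with insulin. None of these marker genes passed in any comparison.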

How the data were processed

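Expression was measured in liver RNA of 9 KKAy mouse samples, amplified, per the labels' protocols, by 3' in vitro transcription. The authors deposited 1 log2 signal for each probe set and array. How these signals were computed: not given in the sources used here. Linear signals had a 2% trimmed mean of 500.004 on every array and the lowest value was 0, so the values were used as deposited. Of 45101 probe sets, 64 controls were left out and 45037 tested. Names came from the platform annotation of the array: 34945 probe sets had 1 symbol, 932 several and 9160 were unnamed here, and 34741 were matched by gene ID to RefSeq names.

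All 9 arrays entered 1 limma fit (version 3.58.1, R 4.3.3, lmFit and eBayes, 6 residual degrees of freedom) with group as the factor. Two-sided p-values were adjusted by Benjamini-Hochberg over 45037 probe sets, with a threshold of 0.05. Group values are means ± SD and differences are ± SE from the fit. Precision is limited by the number of arrays. The fit was also run on simulated data, with changes added only to probe sets at or above the median mean level. That run does not speak for the recovery of changes in dimmer genes, and its outcome is not given here. The genes and lists were chosen with earlier results of these data known, so their counts and medians are given without a test. Values of every array are given for the 3 genes of smallest p in each comparison and the brightest gene of each class, and for the second probe sets of Eomes and Prf1, chosen after their values were seen; so were Cd3d, Cd28, Ifng and the other genes named with means or ranges. Of the second list, the 2 genes of smallest p per comparison are named. Cxcl9 was chosen after its values were seen. The 3 promoter motifs were chosen after the genes were known. Alternatives tried were equal array medians, quantile normalization, a filter at the median mean level of 6.04, a floor at 6, a variance trend with robust fitting, a fit of the compared groups alone, array weights, averaging all probe sets of a gene, the replicate block and leaving out each array.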

Additional observations from a re-analysis of the deposited data

How the results depend on the processing

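No lymphocyte gene passed in any of the 3 comparisons or in the F test under any alternative run (0 called each time). For Eomes the adjusted p ranged from 0.118 to 1.00 in insulin against untreated and from 0.192 to 1.00 in BI against insulin. It was 1.00 in both with a variance trend and robust fitting, and in BI against insulin also when its probe sets were averaged. Its difference kept its direction under each alternative that gave one, and was 1.66 and -0.79 when its 2 probe sets were averaged. The filter on dim probe sets left 6 of the 32 genes, without Eomes or Gata3, and with the floor at 6 both were at the floor on every array. That floor also put the median difference of the 32 genes at 0 in all 3 comparisons. Averaging all probe sets of a gene gave medians of 0.26 in insulin against untreated, 0.12 in BI against untreated and -0.16 in BI against insulin. Leaving out 1 array gave medians of 0.22 to 0.42 in insulin against untreated, -0.22 to 0.12 in BI against untreated and -0.40 to -0.22 in BI against insulin. The first was 0.22 without untreated replicate 3 and 0.25 without insulin replicate 2. The last was -0.22 without insulin replicate 2 or BI replicate 2, and -0.24 without BI replicate 1. In BI against untreated the median was -0.22 without untreated replicate 3. The cause of these shifts was not tested. With the replicate block 0 genes were called and the medians were 0.41, -0.0049 and -0.38. The deviations of same-numbered arrays from their group means had correlations of -0.159 to 0.147 across probe sets, and the main fit used no pairing. Such correlations leave out a shift of a whole array. Array medians rose with replicate number in each group, from 6.11 to 6.27 untreated, 6.17 to 6.27 with insulin and 6.13 to 6.30 with BI. The summed signal of the hepatocyte markers rose in the same order in each group. With so few arrays a group, the correlations cannot exclude a factor that same-numbered arrays share. Signals under the array medians of 6.11 to 6.30, where 26 of the 32 genes had their mean, limit what could be detected.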
